A study of Mus musculus with 10 samples.

Results

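The 6 ubiquitin gene families described here are the E2 conjugating enzymes named Ube2, the deubiquitinases named Usp, the F-box proteins named Fbxo and Fbxl, and the RING and tripartite motif ligases named Rnf and Trim. Their members were chosen by gene symbol alone, as every gene of the blood expression table whose name starts with one of these stems. Of 182 matching genes 6 were set aside by name (Ube2l6, Ube2o, Trim58, Fbxo7, Trim63 and Fbxo32), which left 176 of 8904 genes. The members are 29 Ube2, 34 Usp, 20 Fbxo, 11 Fbxl, 49 Rnf and 33 Trim genes. Blood was taken from adult C57BL/6 mice, 5 in the control group given PBS for 30 days and 5 in the metformin-treated group given metformin for 30 days. The labels name no transgene or deletion and give neither the dose of these mice nor a cell selection, and each library was taken as 1 mouse.

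Ubiquitin is attached to proteins by a relay of enzymes. An E1 enzyme activates it, an E2 carries it, and an E3 ligase brings the E2 and the target together. Most Rnf and Trim ligases hold the loaded E2 directly, whereas F-box proteins are the interchangeable target readers of cullin-based ligases. Deubiquitinases of the Usp family remove the tag again. Chains of different linkage send a protein to the proteasome, move it between membranes or change its partners, and maturing red cells and striated muscle are both known for extensive remodelling of their proteins by this pathway.

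The values are log2 FPKM as deposited, that is, fragments per gene scaled by transcript length and by library, so levels of different genes can be compared. Which offset went in before the logarithm is not given in the sources used here, and differences of genes with low values are understated on this scale. No counts were used and the depth of the libraries is unknown. Control 1 and control 5 held 3839 and 3674 distinct values and the other libraries 868 to 1516, so values were more coarsely graded in the latter. The part of this in the order of libraries at low levels was not tested. Once sorted, the values of the 10 libraries were almost the same (largest SD at any rank 0.0399), and a change common to most genes of 1 library would not show. Control 1 and control 5 stood apart from the other 8 libraries. The mean of 24 measured erythroid marker genes reached only 0.56 in control 1 and 1.86 in control 5. This mean, which takes in 3 of the genes set aside by name, was 4.28 to 4.92 for control 2, 3 and 4 and 5.06 to 5.26 for metformin 1 to 5. The mean of 22 heart marker genes was 6.34 and 6.81 in these libraries and 0.18 to 1.36 elsewhere. In control 1 the erythroid marker Slc4a1 (0.09) was close to the lowest values of the library. The other 3 controls differed from the metformin-treated group as well, because 18 fast skeletal muscle markers had a mean of 0.40 to 0.52 in control 2, 3 and 4 and of 4.26 to 4.87 in metformin 1 to 5. In control 1 and 5 this mean was 1.93 and 1.77. In bulk blood, fewer cells of a type and less RNA per cell cannot be told apart. Results are therefore given with all 10 libraries and, chosen once the values were known, without control 1 and control 5.

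Most members had low levels in blood. The median member had a log2 value of 0.81 over the 10 libraries, which was also the median of the whole table, and the Ube2 genes had the highest family median at 1.27, against 0.70 to 0.84 in the others. A level of at least 1 in at least 5 libraries was reached by 66 members, namely 19 Ube2, 13 Usp, 3 Fbxo, 2 Fbxl, 22 Rnf and 7 Trim genes, and these entered the test between groups together with all 3442 genes that reached it. The highest member was Rnf10, a RING ligase that marks small ribosomal subunit proteins in human cells, with a mean level of 7.65. It was followed by Ube2b (6.36), one of the vertebrate RAD6 enzymes, by Ube2r2 (5.61), a CDC34-type E2 of cullin ligases, by Ube2c (5.42), the initiating E2 of the anaphase-promoting complex, and by Trim10 (5.10), a ligase known from mouse erythroid differentiation. Usp15, which acts on TGF-beta signalling proteins, was the highest deubiquitinase at 4.18 and Fbxo9 the highest Fbxo gene at 3.68. Of the 176 members, 13 had a mean level of at least 3.

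Among the placements counted, those that set control 1 and control 5 apart were the most frequent, in the members as in the whole table. For 45 of the 176 members (25.6%) both libraries lay below all 8 others, against 12.2% of the whole table, and for 14 members (7.95%) both lay above all others, against 20% of the whole table. These are counts of positions and no test was made of them. When each library was centred on the median of its tested genes, which lay 0.17 below the mean of the libraries in control 1 and 0.09 below it in control 5, the counts were 29 members (7.60% of the whole table) and 26 members (27.0%). The Ube2 family held 11 such low genes among 29 and no high one, and the Rnf family 15 among 49 and 2 high ones. Both directions occurred among the Usp genes (6 low, 5 high), the Trim genes (7 low, 5 high) and the Fbxl genes (2 low, 2 high), and the Fbxo genes held 4 low ones and no high one.

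**Figure D1:**
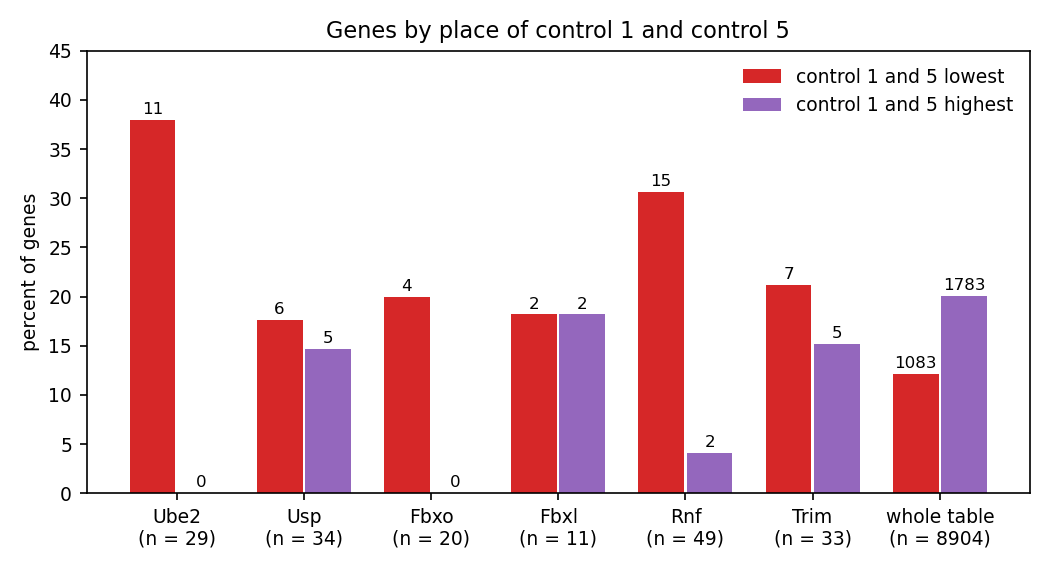
Percent of genes in each of the 6 families and in the whole table for which control 1 and control 5 are the lowest libraries (red) or the highest libraries (purple), with the number of genes above each bar. The Ube2 and Rnf families hold 11 and 15 genes with both libraries lowest, and the whole table holds 1083 of 8904.

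Among the conjugating enzymes that were low in control 1 and control 5, Ube2c was at 0.24 in control 1 and 1.29 in control 5. In control 2, 3 and 4 it was at 6.71, 5.83 and 6.73, and in metformin 1 to 5 at 6.81, 6.75, 6.39, 6.67 and 6.76. The gap of 4.54 between the lower and the upper libraries was the widest of all members, and control 2 and 4 lay within the range of the metformin-treated group. Ube2r2 was at 1.11 and 1.94 in control 1 and 5, at 6.14, 5.96 and 6.88 in control 2, 3 and 4, and at 7.02, 6.88, 6.76, 6.81 and 6.64 in metformin 1 to 5. Ube2b, which works with the Rnf20 and Rnf40 ligases on histone H2B, was at 2.48, 7.50, 5.86, 7.16 and 2.60 in control 1 to 5 and at 7.82, 7.45, 7.75, 7.39 and 7.54 in metformin 1 to 5. Both thus had 2 low controls and otherwise overlapping groups. Ube2h, the E2 of the CTLH ligase that is known from erythroid maturation, was lower in level and had the same order, at 0.77, 2.67, 1.72, 2.43 and 0.98 in the controls and 2.30 to 2.80 in the metformin-treated group. Ube2s, which extends chains on the anaphase-promoting complex, ranged from 1.52 and 2.07 in control 1 and 5 to 4.73 to 5.50 in the other controls. Its metformin values of 4.12 to 5.21 lay below or within the latter. The NEDD8-conjugating enzymes Ube2m and Ube2f followed, with 2.80 and 2.68 for Ube2m and 0.71 and 0.98 for Ube2f in control 1 and 5, against at least 4.19 and 2.73 in every other library.

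The ligases of the same placement were led by Rnf10, at 2.15, 8.77, 8.09, 9.11 and 3.99 in control 1 to 5 and at 8.87, 9.22, 8.87, 9.11 and 8.35 in metformin 1 to 5. Trim10 was at 0.06, 6.89, 4.89, 6.69 and 0.97 in the controls and at 6.39, 6.27, 6.13, 5.88 and 6.86 in metformin 1 to 5. The value of 0.06 is close to the lowest of that library, and control 2 exceeded every metformin library. Rnf11, a small RING protein that binds NEDD4-type ligases, was at 1.17 and 1.41 in control 1 and 5 and at 5.15 to 6.13 in the other libraries. Rnf114 (1.35 and 1.75 against 2.87 to 4.05), Trim59 (0.13 and 0.31 against 1.17 to 2.31) and Fbxo9 (1.13 and 1.21 against 3.54 to 4.69) had smaller gaps. On the deubiquitinase side Usp15 was at 0.58, 4.53, 3.77, 5.27 and 0.89 in control 1 to 5 and at 5.44, 5.42, 5.02, 5.24 and 5.65 in metformin 1 to 5, so that only control 4 reached the metformin range. Usp32 (0.35 and 0.45 against 1.72 to 2.38) was also low in both libraries. With 2 of 5 controls low, none of these large differences passed limma: the log2 difference between the groups was 2.52 for Ube2c (standard error 1.24, adjusted p = 0.197), 2.46 for Rnf10 (1.25, 0.203), 2.40 for Trim10 (1.26, 0.216), 2.47 for Ube2b (0.99, 0.140) and 2.35 for Usp15 (0.87, 0.120). Without control 1 and control 5 the differences were 0.25, 0.23, 0.15, 0.75 and 0.83, with adjusted p from limma of 0.549, 0.568, 0.840, 0.180 and 0.156. The erythroid marker mean moved with this group of members, and its part in the differences was not tested.

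**Figure D2:**
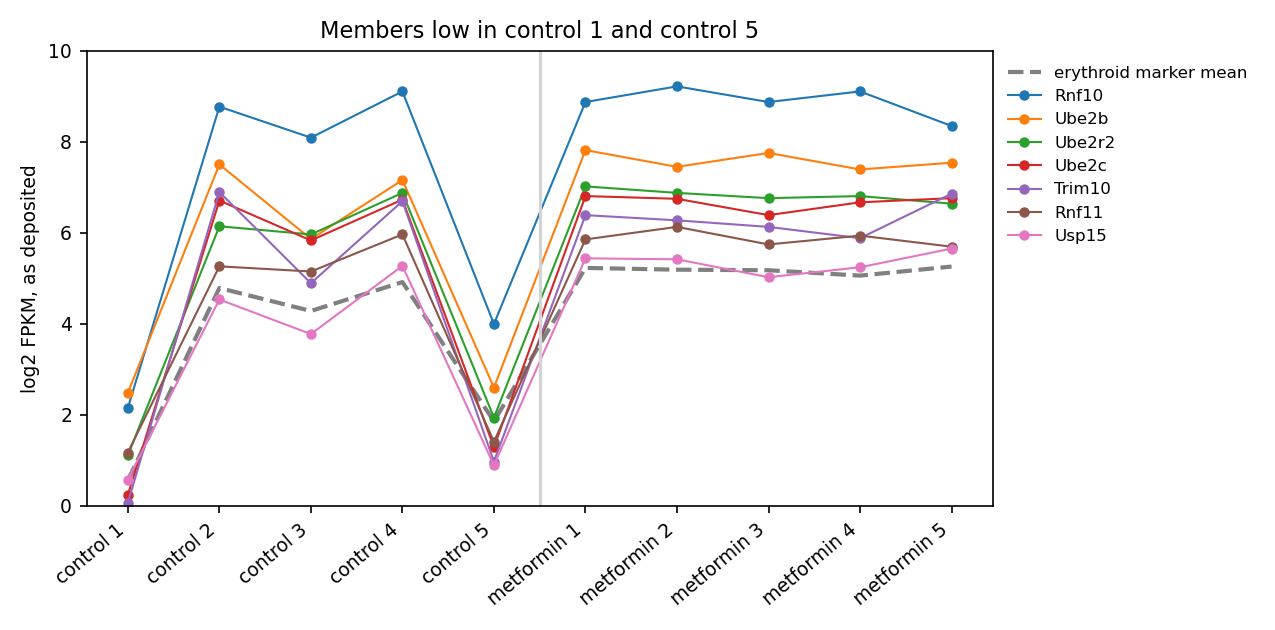
Log2 FPKM of 7 members in each of the 10 libraries (solid lines, 1 point per library), with the mean of 24 erythroid marker genes as a dashed line. Control 1 and control 5 are the lowest libraries of all 7 members, as they are for the marker mean (0.56 and 1.86). Among the other 8 libraries control 3 is the lowest for all 7 members, with Ube2b at 5.86, Trim10 at 4.89 and Usp15 at 3.77, and for the marker mean (4.28).

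A list of 6 members with a known erythroid role (Ube2b, Ube2h, Fbxl5, Rnf123, Rnf10 and Trim10) had 5 tested genes. None passed limma (over the 3442 tested genes, 4.21% passed as higher and 3.11% as lower), and 3 had an unadjusted p under 0.05 and a higher mean (16.2% of all tested genes). Of the 6 members, 4 had control 1 and 5 as their lowest libraries (12.2% of the whole table). The other 2 were Rnf123, the catalytic ligase of the KPC complex (2.0 and 2.02 in control 1 and 5, but 1.71 in control 3), and the iron sensor Fbxl5 (0.70 and 0.72, with metformin 1, 4 and 5 at 0.58, 0.52 and 0.59). Promoter windows of RefSeq on GRCm38.p6, from 250 bases before the start site to 50 after it, matched 138 of the members. The letters AGATAA, a form of the motif of GATA factors, were searched on both strands, and occurred in 12.7% of 27025 genes, in 6 members (4.35%) and in 2 of the 35 matched members that were lowest in control 1 and 5. The upstream bases of Trim10 are shown since it is the member of this group with the most specific erythroid history and 1 of the 2 with a match. They are 5′ to 3′ on the plus strand, chr17:36869324-36869573, with the match (on the reverse strand, 163 bases before the start site) in capitals.
Trim10: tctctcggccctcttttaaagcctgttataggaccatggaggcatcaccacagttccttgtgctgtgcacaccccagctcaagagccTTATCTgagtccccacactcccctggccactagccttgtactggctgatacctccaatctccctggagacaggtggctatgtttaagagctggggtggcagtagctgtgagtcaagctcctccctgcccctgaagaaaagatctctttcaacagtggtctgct

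The 14 members with control 1 and control 5 on top included the heart ligase Rnf207, known in humans for its part in cardiac repolarization. It was at 3.81 and 3.86 in control 1 and 5, at 0.11, 0.41 and 0.51 in control 2, 3 and 4 and at 0.12, 0.43, 0.09, 0.10 and 0.49 in metformin 1 to 5. Outside these 2 libraries it stayed below 0.52, in both groups. Usp50, a little-studied member of the Usp family whose gene overlaps Usp8, was at 4.24, 1.59, 1.78, 1.68 and 4.21 in control 1 to 5 and at 1.84, 2.11, 1.74, 1.77 and 1.97 in metformin 1 to 5. Its group difference of -0.81 (standard error 0.56, adjusted p = 0.320 from limma) became 0.20 (0.17, adjusted p = 0.455) without control 1 and 5. Trim47 (1.60 and 1.14 against at most 0.41) and the cardiac Z-disc F-box protein Fbxl22 (0.75 and 0.65 against at most 0.23) were further members high in both libraries at low levels, and reads of Fbxl22 may be shared with Herc1, which it overlaps. Trim7, which binds glycogenin, was at 1.51 and 1.37 against at most 1.09, and Usp28, which counteracts the ligase adaptor Fbxw7, at 0.66 and 0.62 against at most 0.46.

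For 4 members the 3 controls 2, 3 and 4 were the lowest libraries (2.27% of members, 4.69% of the whole table), and all 4 are known from striated muscle or from muscle tissue among others. Trim54 (MuRF3, a microtubule-binding ligase of the sarcomere) was at 3.77 and 4.19 in control 1 and 5, at 0.11, 0.19 and 0.38 in control 2, 3 and 4, and at 1.89, 1.80, 1.50, 1.74 and 1.43 in metformin 1 to 5. With all controls the difference was -0.05 (standard error 0.80, adjusted p = 0.962 from limma), and against control 2, 3 and 4 it was 1.45. The value of control 2 is the lowest of that library. Fbxo40, a skeletal muscle F-box protein that targets the insulin signalling protein IRS1, was at 1.07 and 0.86 in control 1 and 5, at 0.11, 0.13 and 0.13 in control 2, 3 and 4 and at 1.10, 0.62, 0.80, 0.57 and 0.84 in metformin 1 to 5. Trim72 (MG53), which takes part in membrane repair of muscle, was at 1.06 and 1.22, at 0.11, 0.13 and 0.21 and at 0.54, 0.66, 0.78, 0.71 and 0.84 in the same order. Usp13, a deubiquitinase with a role in protein quality control at the endoplasmic reticulum, was at 0.96 and 0.67, at 0.18, 0.11 and 0.13 and at 0.52, 0.58, 0.40, 0.33 and 0.43. For Trim54, Trim72 and Usp13 the metformin-treated group thus lay between the low controls and both heart-rich controls, and for Fbxo40 it overlapped the latter. Only Trim54 passed the level filter. Against control 2, 3 and 4 the differences of Fbxo40, Trim72 and Usp13 were 0.66, 0.56 and 0.31. Because the 4 genes were picked for lying lowest in these controls, the differences are a description with no test. The fast skeletal marker mean had the same low libraries, and its part in these differences was not tested.

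**Figure D3:**
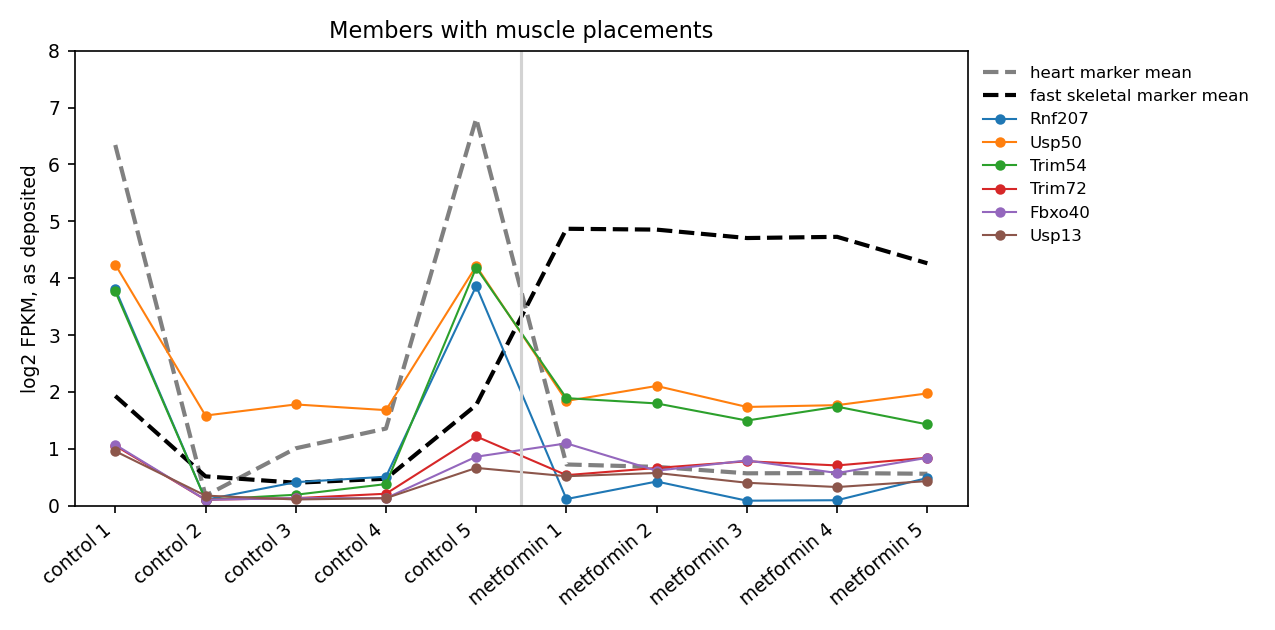
Log2 FPKM of 6 members in each of the 10 libraries (solid lines, 1 point per library), with the means of 22 heart marker genes (grey dashes) and 18 fast skeletal muscle marker genes (black dashes). Rnf207 and Usp50 are highest in control 1 and control 5, as are Trim54, Trim72 and Usp13. Trim54, Trim72, Fbxo40 and Usp13 are lowest in control 2, 3 and 4.

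The letters CAGCTG, an E-box of the kind bound by muscle regulatory factors and the same on both strands, occurred in the promoter windows of 18.3% of all genes, of 28 matched members (20.3%) and of 3 of the 4 members just described, with 3 of 4 too few for any statement on the group. Trim54 and Fbxo40 are shown as the members with the widest gaps in this placement. The upstream bases of Trim54 lie at chr5:31116362-31116611 on the plus strand with the match 113 bases before the start site, and those of Fbxo40 at chr16:36990468-36990717 on the minus strand with matches 53 and 81 bases before it, both of GRCm38.p6, 5′ to 3′, with the matches in capitals. The distance for Trim54 holds for the RefSeq start site only. In GENCODE M21 the gene starts at 31116712, downstream of the window, and the bases after the RefSeq start site were found in no transcript of the gene. A match is a description of the letters and not of a bound site.
Trim54: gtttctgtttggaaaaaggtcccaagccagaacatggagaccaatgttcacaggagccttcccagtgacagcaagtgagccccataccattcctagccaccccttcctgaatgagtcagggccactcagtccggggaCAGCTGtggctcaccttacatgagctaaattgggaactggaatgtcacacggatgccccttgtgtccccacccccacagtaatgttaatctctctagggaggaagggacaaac
Fbxo40: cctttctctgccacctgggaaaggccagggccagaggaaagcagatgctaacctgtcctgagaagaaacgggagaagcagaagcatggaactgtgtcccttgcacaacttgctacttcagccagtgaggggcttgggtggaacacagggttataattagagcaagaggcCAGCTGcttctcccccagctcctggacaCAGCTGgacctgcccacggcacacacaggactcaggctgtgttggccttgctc

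Of 14 members known from muscle 13 were measured and 5 were tested, and none passed limma in either direction (4 were higher at an unadjusted p under 0.05, as were 16.2% of all tested genes). Of the 13, 7 were highest in control 1 and 5 (20% of the whole table), 4 lowest in control 2, 3 and 4 (4.69%, and 3 of these 4 are among the 7) and 3 lowest in control 1 and 5 (12.2%). The last were Ube2b, Usp25 and Fbxo30. Ube2g1, an E2 of quality control at the endoplasmic reticulum, was at 0.56 ± 0.11 (SD, n = 5) in the control group and 0.49 ± 0.15 (SD, n = 5) in the metformin-treated group. Usp19, which has a muscle-wasting role in rodents, was at 1.34, 1.99, 1.36, 1.83 and 1.44 in control 1 to 5 and at 1.97, 2.30, 2.33, 1.81 and 1.87 in metformin 1 to 5 (difference 0.46, standard error 0.21, adjusted p = 0.172 from limma).

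Between the metformin-treated and the control group, 3 of the 66 tested members were higher (4.55%) at an adjusted p under 0.05 in limma, against 4.21% of all tested genes, and none was lower, against 3.11%. By the unadjusted p of 0.05, 17 members lay higher (16.2% of all tested genes) and 4 lower (12.6%). The median difference of the tested members was 0.16, and that of all tested genes 0.01. All 5 metformin libraries lay above all 5 controls in 7 members (3.98%, and 3% of the whole table), which were Usp14, Rnf14, Rnf115, Usp25, Usp9x, Fbxl17 and Trim37. They lay below in 1 (3.26% of the whole table), Trim11. Marker means separated the groups as well. The fast skeletal mean was 0.40 to 1.93 in the controls and 4.26 to 4.87 in the metformin-treated group. The erythroid mean was 0.56 to 4.92 and 5.06 to 5.26. The part of these markers in the differences of the members was not tested.

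The deubiquitinase Usp14, which sits on the proteasome and trims chains from arriving proteins, was at 0.86, 0.93, 0.76, 1.12 and 0.53 in control 1 to 5 and at 1.50, 1.69, 1.47, 1.47 and 1.78 in metformin 1 to 5. Its groups did not overlap, as was so for both marker means just given, and control 1 and 5 were not far from the other controls. The difference was 0.74 (standard error 0.15, adjusted p = 0.0190 from limma), and 0.64 (0.15, adjusted p = 0.0210) without control 1 and 5. The call ended without control 5 or without metformin 5 (adjusted p of limma 0.0572 to 0.0598), and without the level filter, below which 4 of its 5 controls lay, the adjusted p was 0.0478. Usp14 lies on chromosome 18 of GRCm38 from 9993066 to 10045119 and overlaps Thoc1. Whether the counting used the strand is not given in the sources used here, so reads of overlapping genes may be shared.

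Rnf14, an RBR-type ligase that acts on stalled translation, was at 1.23, 1.85, 1.71, 2.16 and 0.89 in control 1 to 5 and at 2.52, 2.98, 2.57, 2.47 and 2.48 in metformin 1 to 5. All metformin values exceeded all controls, among which control 1 and 5 were the lowest. The difference was 1.03 (standard error 0.27, adjusted p = 0.0405 from limma), and 0.70 (0.22, adjusted p = 0.0571) without control 1 and 5. Leaving out control 1, control 5 or any metformin library ended the call (adjusted p of limma 0.0524 to 0.0991), as did dropping the level filter (0.0849). The gene lies on chromosome 18 from 38284537 to 38317849 and overlaps Pcdh12. Rnf115, a RING ligase of endosomal sorting, was at 0.46, 2.02, 2.29, 1.99 and 0.84 in control 1 to 5 and at 2.79, 3.04, 2.83, 2.59 and 2.97 in metformin 1 to 5. It also separated the groups, with the same 2 controls lowest. Its difference was 1.32 (standard error 0.36, adjusted p = 0.0475 from limma) with all libraries and 0.75 (0.21, adjusted p = 0.0415) without control 1 and 5. The call ended in the same 7 cases of a left-out library (adjusted p of limma 0.0516 to 0.126) and without the level filter (0.0923). Rnf115 lies on chromosome 3 from 96727664 to 96791638.

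**Figure D4:**
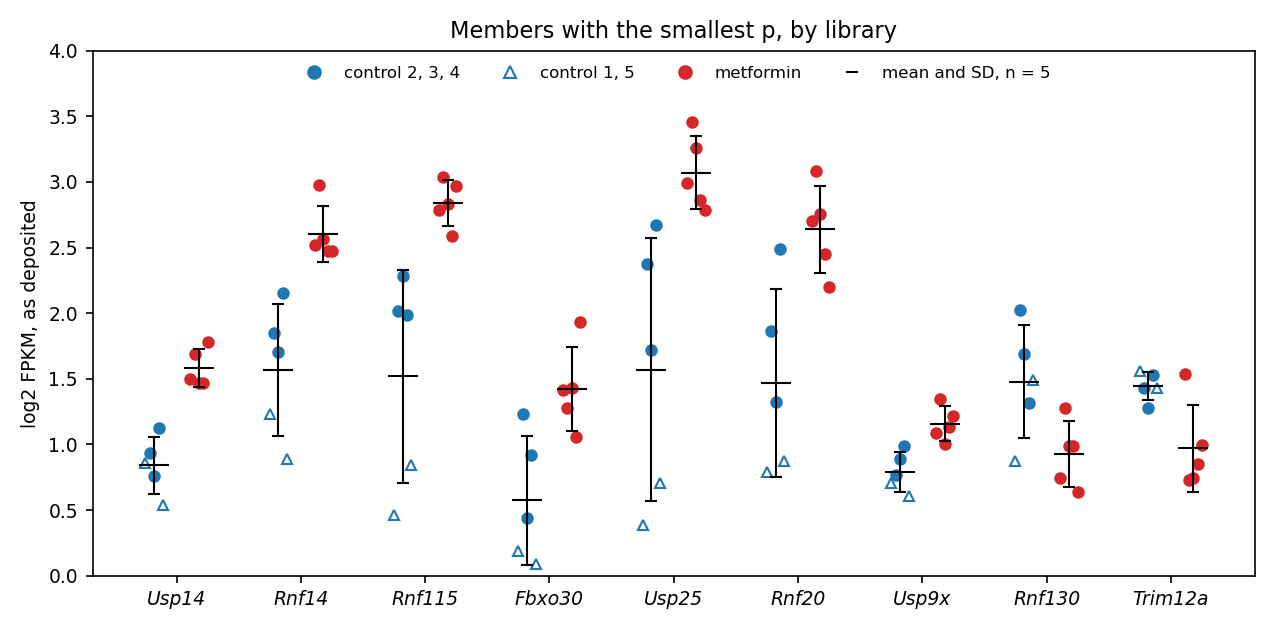
Log2 FPKM by library of 7 members that were higher and 2 that were lower in the metformin-treated group (red) than in the control group (blue), among those with the smallest p in limma. Open triangles are control 1 and control 5, and black lines give mean and SD (n = 5). Only Usp14, Rnf14 and Rnf115 passed an adjusted p of 0.05, and the open triangles are the lowest controls in Rnf14, Rnf115, Fbxo30, Usp25, Rnf20 and Usp9x.

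The next members by p did not pass. Fbxo30, an F-box protein known as MUSA1 from muscle atrophy in mice, was at 0.18, 1.23, 0.44, 0.92 and 0.09 in control 1 to 5 and at 1.41, 1.28, 1.43, 1.06 and 1.93 in metformin 1 to 5 (difference 0.85, standard error 0.24, adjusted p = 0.0549 from limma). Its groups overlapped through control 2. Usp25, a deubiquitinase with a muscle isoform, was at 0.39, 2.38, 1.72, 2.67 and 0.71 in the controls and at 2.99, 3.46, 3.26, 2.86 and 2.79 in metformin 1 to 5 (1.50, 0.43, adjusted p = 0.0602). Rnf20, the partner of Ube2b on histone H2B, was at 0.79, 1.87, 1.32, 2.49 and 0.87 and at 2.70, 3.09, 2.76, 2.45 and 2.20 (1.17, 0.34, adjusted p = 0.0610). Usp25 separated the groups and Rnf20 did not, since control 4 lay above metformin 4 and 5. Usp9x, a large X-linked deubiquitinase, differed by 0.37 (standard error 0.11, adjusted p = 0.0785 from limma), with 0.61 to 0.99 in the controls and 1.0 to 1.35 in the metformin-treated group. Without control 1 and 5 these 4 differences were 0.56, 0.82, 0.75 and 0.28, with adjusted p from limma of 0.142, 0.0832, 0.137 and 0.192. Leaving out 1 control could also move Fbxo30, Usp25 and Rnf20 past the threshold (control 2 or control 4 for Fbxo30 and Usp25, control 4 for Rnf20, adjusted p of limma 0.0209 to 0.0460). Every control of Usp9x lay below the filter level of 1, as did every control of Fbxo30 except control 2. No metformin library of either gene lay below it, so Usp9x entered the test only through the group where it is high. Without the filter the adjusted p of limma was 0.0989 for Fbxo30 and 0.154 for Usp9x.

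Fbxl17 and Trim37 separated the groups below the level filter. Fbxl17, which removes wrongly paired BTB proteins, was at 0.30, 0.39, 0.52, 0.50 and 0.31 in control 1 to 5 and at 0.90, 1.05, 0.83, 1.22 and 1.24 in metformin 1 to 5. In a fit of all 8904 genes without the filter, 2 members were higher, Fbxl17 (difference 0.65) and Usp14, and none was lower. In that fit 0.674% of all genes were higher and 0.146% lower, and at an unadjusted p under 0.05 there were 22 higher (10% of all genes) and 12 lower members (9.88%). Trim37, a ligase of centriole assembly, was at 0.21 to 0.70 in the controls and 0.84 to 1.58 in the metformin-treated group. Trim11 was at 1.03, 1.04, 0.76, 1.03 and 1.08 in control 1 to 5 and at 0.72, 0.47, 0.27, 0.50 and 0.47 in metformin 1 to 5, all lower, with control 3 and metformin 1 close to each other.

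No member was lower with all 10 libraries in limma. The smallest p belonged to Trim12a, a mouse relative of the retroviral restriction factor Trim5, which was at 1.56, 1.43, 1.28, 1.53 and 1.43 in control 1 to 5 and at 1.53, 0.73, 0.74, 0.85 and 0.99 in metformin 1 to 5. Here metformin 1 lay among the controls and the other 4 below them (difference -0.48, standard error 0.17, adjusted p = 0.111 from limma), and without metformin 1 the adjusted p was 0.0382. Trim12a has a close copy in Trim12c on chromosome 7, so reads may be divided between them. Rnf130 (Goliath), a membrane ligase of endosomes, was at 0.87, 2.02, 1.69, 1.31 and 1.49 in control 1 to 5 and at 0.75, 1.28, 0.99, 0.99 and 0.63 in metformin 1 to 5. With all libraries control 1 fell among the metformin values (difference -0.55, standard error 0.22, adjusted p = 0.136 from limma). Without control 1 and 5 the groups did not overlap and Rnf130 was lower (-0.75, standard error 0.20, adjusted p = 0.0349), and without control 1 alone the adjusted p was 0.0424.

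Apart from Usp50, whose values were given with the heart-rich libraries, the further members with the smallest p in this direction had smaller differences than Rnf130. Rnf40, the other partner of Ube2b, differed by -0.38 (standard error 0.15, adjusted p = 0.130 from limma), Rnf220 by -0.40 (0.16, 0.139), Rnf166 by -0.36 (0.16, 0.174) and Rnf44 by -0.20 (0.20, 0.486). Rnf20 and Rnf40, which form 1 ligase, thus had differences of opposite sign, 1.17 and -0.38, neither past the threshold. The B cell marker mean of 12 genes was 0.29 and 2.41 in control 1 and 5, 2.72 to 3.76 in control 2, 3 and 4 and 1.08 to 2.30 in the metformin-treated group. The means of T and natural killer cell, monocyte and neutrophil markers were 0.15 to 2.13, 0.47 to 2.34 and 0.15 to 4.11 in the controls, each lowest in control 1, and 0.77 to 1.51, 0.98 to 1.54 and 0.63 to 1.91 in the metformin-treated group. The part of these markers in the lower values was not tested.

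Without control 1 and control 5, 3 tested members were higher, Usp14, Rnf115 and Trim54, the last already described by its low values in these 3 controls (5.81% of all tested genes), and 1 was lower, Rnf130 (9.06%). By the unadjusted p of 0.05, 8 members lay higher (12.6%) and 7 lower (16.1%). With all 8904 genes in that fit, 6 members were higher (Fbxl17, Fbxo40, Trim54, Trim72, Usp13 and Usp14, 3.12% of all genes) and 6 lower (Rnf111, Rnf130, Rnf144a, Trim11, Trim25 and Trim30b, 5.59%). Fbxo40, Trim54, Trim72 and Usp13 had been picked above for lying lowest in control 2, 3 and 4, so their calls here are no test. By the unadjusted p, 17 members lay higher (10.1%) and 21 lower (14.3%) in this fit. Trim30b was at 1.38, 1.20 and 0.62 in control 2, 3 and 4 and at 0.68, 0.12, 0.29, 0.18 and 0.26 in metformin 1 to 5 (difference -0.76, adjusted p = 0.0269 from limma), with control 4 below metformin 1. Trim25, which activates the RNA sensor RIG-I, was at 0.74, 0.89 and 0.95 and at 0.54, 0.41, 0.42, 0.52 and 0.28 (-0.43, adjusted p = 0.0271), without overlap. In control 1 and 5 these 2 genes were at 0.07 and 0.63 (Trim30b) and at 0.47 and 0.65 (Trim25). Rnf144a (-0.39), Rnf111 (-0.31) and Trim11 (-0.46) had adjusted p of limma of 0.0354, 0.0369 and 0.0472 in the same fit.

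**Figure D5:**
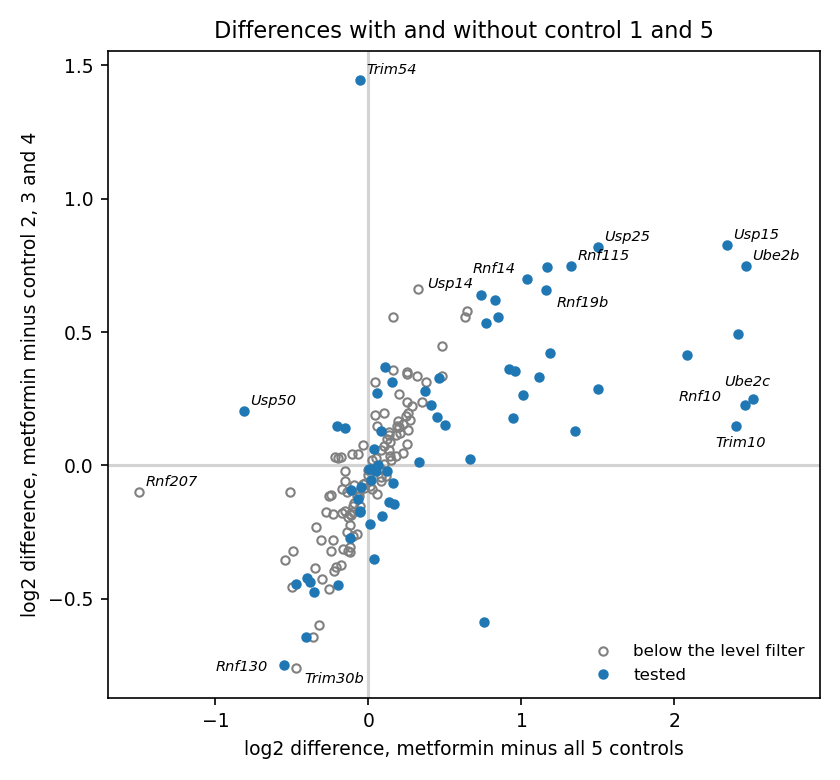
Each point is 1 of the 176 members, placed by its log2 difference between the metformin-treated group and all 5 controls (horizontal axis) and between the metformin-treated group and control 2, 3 and 4 (vertical axis), with filled points for the 66 tested members. Ube2c, Rnf10 and Trim10 lie far right and near 0 on the vertical axis (0.25, 0.23 and 0.15), and Trim54 lies near 0 on the horizontal axis and at 1.45 on the vertical axis.

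The members were also counted by role. Over all tested genes, 4.21% were higher and 3.11% lower in limma, and 16.2% and 12.6% by unadjusted p. Of 15 measured members linked to interferon or innate sensing, 6 were tested and none passed limma in either direction with all libraries. In 6 of the 15 control 1 and 5 were the lowest libraries (12.2% of the whole table), among them Usp18, which removes the interferon-induced tag ISG15 (0.28 and 0.45 against 0.63 to 1.63). In this list the median difference of the 15 measured members was -0.11, and over all genes of the table it was -0.06. For the 6 tested members of the list it was 0.31, and for all tested genes 0.01. At an unadjusted p under 0.05, 1 member of the list lay higher and 1 lower. Of 7 measured cell cycle members 3 were tested and none passed (1 higher by unadjusted p), and none passed among 21 members of DNA damage and chromatin (7 tested, 2 higher and 1 lower by unadjusted p), 14 of quality control at the endoplasmic reticulum (8 tested, 2 higher) and 4 E2 enzymes of ubiquitin-like tags (3 tested, 0 in either direction). Among 11 members of endosomes and mitochondria (5 tested), 1 was higher, Rnf115, 4 were higher by unadjusted p, and 5 of the 11 were lowest in control 1 and 5.

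A further pair of members had their high values where platelet markers were high. The mean of 12 platelet markers was 4.48 to 5.66 in control 3 and in metformin 1, 3, 4 and 5, and 0.23 to 2.02 in the other 5 libraries, a split that crosses the groups. Rnf19b, an RBR-type ligase known from natural killer cells, was at 0.67, 1.69, 3.74, 1.22 and 1.25 in control 1 to 5 and at 3.24, 1.22, 3.05, 3.64 and 3.21 in metformin 1 to 5. Fbxl2, a membrane-anchored F-box protein, was at 0.22, 0.31, 1.63, 0.19 and 0.17 in control 1 to 5 and at 1.39, 0.62, 1.37, 1.73 and 1.52 in metformin 1 to 5. In both, control 3 was high among the controls and metformin 2 was low among the metformin-treated libraries. These were the only 2 members with this placement (1.14%, against 4.85% of the whole table), which was looked for after the data were seen. Their group differences were 1.16 for Rnf19b (standard error 0.60, adjusted p = 0.212 from limma) and 0.83 for Fbxl2 (0.30, 0.113). Without control 3, Fbxl2 had an adjusted p of 0.0171.

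Outside the 6 families, a list of 122 other genes of the pathway had 99 measured and 52 tested genes, of which 4 were higher (4.21% of all tested genes) and 1 was lower (3.11%) in limma. Klhl41, a skeletal muscle adaptor of cullin 3 ligases, was at 0.52, 0.19, 0.07, 0.08 and 0.45 in control 1 to 5 and at 1.23, 1.24, 1.19, 1.25 and 1.0 in metformin 1 to 5. Its difference of 0.92 (standard error 0.11, adjusted p = 5.47e-04 from limma) remained past the threshold in every alternative that kept the gene. The fast skeletal marker mean was 0.40 to 1.93 in the controls and 4.26 to 4.87 in the metformin-treated group, and its part in this difference was not tested. Asb2, a muscle-expressed adaptor of cullin 5 ligases, was at 2.73 and 2.64 in control 1 and 5, at 0.11, 0.27 and 0.19 in control 2, 3 and 4 and at 1.38 to 1.84 in the metformin-treated group, the order already seen for Trim54. Gid8 and Ubr3 were higher by 0.62 (standard error 0.15, adjusted p = 0.0300) and 0.47 (0.11, 0.0345), as was the cullin 5 partner Arih2 by 0.96 (0.24, 0.0361). Arih2 had control 1 and 5 as its lowest libraries, at 0.74 and 0.70 against 1.26 to 2.40 elsewhere. The call of Gid8 ended without control 5 or metformin 1, 3, 4 or 5 (adjusted p of limma 0.0550 to 0.0873). Ubr3 lost its call without control 2, control 5 or any metformin library (0.0504 to 0.0981). Every control of Klhl41, Gid8 and Ubr3 lay below the filter level of 1 and every metformin library above it, so that these genes entered the test through the group where they are high. Without the filter the adjusted p of limma was 0.0020 for Klhl41, 0.0651 for Gid8 and 0.0825 for Ubr3. Without control 1 and 5 together, it was 0.0593 for Gid8, 0.0504 for Ubr3 and 0.0633 for Arih2.

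In Gid8 control 1 and 5 were the lowest libraries by a narrow gap, at 0.66 and 0.77 against 0.83 to 1.74 elsewhere. Gid8 is a subunit of the CTLH ligase for which Ube2h is the E2. Of its other subunits, Wdr26 (0.67 and 1.03 in control 1 and 5, 3.03 to 4.59 elsewhere), Rmnd5a (0.61 and 0.65, 1.84 to 2.90) and Ranbp10 (0.64 and 0.71, 1.71 to 3.27) had control 1 and 5 as their lowest libraries, as Ube2h had. None of these 3 passed limma with all libraries (differences 1.62, 1.26 and 0.93, adjusted p = 0.164, 0.0620 and 0.213). Maea had the same 2 lowest libraries with a smaller gap, at 1.18 and 1.27 against 1.37 to 1.89 elsewhere. The remaining listed subunits did not have this order, with Gid4 at 0.64 and 0.42 against 0.36 to 0.75, Ranbp9 at 0.57 and 0.58 against 0.38 to 0.88 and Mkln1 at 1.10 and 1.08 against 0.90 to 1.57. Among the genes that encode ubiquitin itself, Ubb was at 5.89 and 7.88 in control 1 and 5 and at 10.73 to 11.17 elsewhere. Rps27a, which encodes ubiquitin fused to a ribosomal protein, was at 5.58, 4.72, 4.35, 4.53 and 5.31 in control 1 to 5 and at 3.69, 3.59, 3.62, 2.77 and 2.87 in metformin 1 to 5. All metformin values lay below all controls (difference -1.59, standard error 0.39, adjusted p = 0.0347 from limma), and without control 1 and 5 the gene was lower by the same test (-1.23, adjusted p = 0.0275). Reads of Rps27a may be shared with its pseudogenes, and leaving out control 5 or any 1 metformin library took the adjusted p of limma to 0.0539 to 0.105.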

How the data were processed

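By the methods and labels, the authors used TopHat (v2.0.9) with Bowtie (v2.0.6) for alignment to GRCm38 and Cufflinks for FPKM. The deposited table holds log2 values, with the base read from its name and an unstated offset, and was used as it is. The mark of quantile normalization in it is not mentioned in the methods. All 176 member identifiers matched GENCODE M21 for GRCm38.

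Genes that reached a log2 value of 1 in 5 or more libraries entered limma 3.58.1 (R 4.3.3, eBayes with a trend), with Benjamini-Hochberg adjustment over these 3442 genes and a threshold of 0.05. The fit was tested on simulated data. The named members are those past the threshold, the 8 with the smallest p in each direction, the highest of each family, the measured members of the muscle and erythroid lists, and the 5 with the widest gap in each of 3 placements. Of the other pathway genes the 4 with the smallest p are named. A few genes that the rule names are not reported here. Other genes were named after their values were seen. The members, lists and placements were chosen with earlier results of these data known. Placements are counted over the whole table, because the level filter keeps genes that are low in only 2 libraries. Labels do not say that libraries are separate animals, so p-values measure the spread between libraries. Alternatives covered the offset, filter, centring, replicate block, eBayes settings, library weights, thresholds and single libraries. With the values known, 3 more were added: without control 1 and 5, the same without the filter, and the platelet placement.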

Additional observations from a re-analysis of the deposited data

Results flagged for a closer look

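In 4 of 78 groups of 5 libraries examined for the 39 named members, 1 library lay far from the other 4, and chance gives about 1 in 20. In Fbxl2, control 3 had 1.63 and the remaining controls 0.17 to 0.31. In Rnf40, control 3 had 1.50 and the remaining controls 1.02 to 1.12. Rnf14 was at 2.98 in metformin 2 and at 2.47 to 2.57 in the other metformin libraries. Rnf166 was at 1.32 in metformin 2 and at 1.01 to 1.05 in the other metformin libraries.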

How the results depend on the processing

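With all libraries 3 members were higher and none lower in limma. The higher count was 1 with an offset of 0.1, 7 at a threshold of 0.1, 0 at a threshold of 0.01 and 6 without control 1 and 5 and without the filter. The last count takes in Fbxo40, Trim54, Trim72 and Usp13, which had been picked for lying lowest in the other controls. Leaving out single libraries gave 0 to 8, with 0 without control 5 or without metformin 5 and 8 without control 4. The lower count was 3 with library weights, 1 without control 1 and 5, 6 when the filter was dropped as well, and 0 to 1 without single libraries. For the other pathway genes (4 higher, 1 lower) the higher count was 1 without the filter, 0 with a stricter filter, 9 with library weights, 8 at a threshold of 0.1, 1 at a threshold of 0.01 and 1 to 7 without single libraries. Their lower count was 0 without the filter, 2 with centring, 3 with library weights, 2 without control 1 and 5 with or without the filter, 2 at 0.1, 0 at 0.01 and 0 to 1 without single libraries. Same-numbered libraries did not deviate together (correlations -0.25 to 0.13, 2 of 5 over 0.1, and 1 of 5 controls correlated best with its own number). This check cannot exclude a pairing by number, because control 1 and control 5 stood apart from the other controls. With the replicate block 0 members were higher, and of the other pathway genes 1 was higher and 0 lower. In positions, centring gave 29 for 45 members lowest in control 1 and 5, 26 for 14 highest there and 4 for 1 below the controls. Without control 1 and 5, 14 members lay above and 9 below the controls, where 7 and 1 did with all libraries. Without single libraries, which leaves fewer libraries to be ordered, the counts were 45 to 69, 14 to 28, 4 to 7, 7 to 12, 1 to 8 and, for the platelet placement, 2 to 4. The difference of Usp50 was 0.20 in both fits without control 1 and 5. The causes were not tested. With unknown depth and several members close to the lowest values of a library, differences at low levels are imprecise. Values below the filter were read only as levels, positions or differences without a test, or in fits named so.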
